A study of Mus musculus with 7 samples.

Results

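The epithelial sodium channel (ENaC) and its hormonal control were followed through 10 genes, of 16272 in the deposited matrix of mouse kidney cells, across the 16 clusters that the authors numbered. The list groups genes by function, and all 10 were in the matrix. It names the channel subunits Scnn1a, Scnn1b and Scnn1g, the mineralocorticoid receptor Nr3c2, the glucocorticoid receptor Nr3c1, the enzyme Hsd11b2, the kinase Sgk1, the ubiquitin ligase Nedd4l, the glucocorticoid-induced gene Tsc22d3 and the vasopressin receptor Avpr2.

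Kidneys came from 7 C57BL/6 mice aged 4 to 8 weeks. Of these, 4 were WT and the other 3 carried Cre reporter genotypes, among them Cdh16CremTmG and SclCremTmG (titled Ksp-cre-GFP and Scl-cre-GFP). In such animals Cre recombinase, driven for example by a gene of tubule epithelium (Cdh16) or of blood and endothelial lineages (Scl), switches the colour of a membrane reporter. The labels state no hormone, diet or drug treatment and no sex. No source ties the barcode numbers 1 to 7 to these animals, so each of the 7 libraries stands for a kidney and all form 1 untreated group. The p-values below therefore measure the spread between these libraries.

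The matrix held 43745 cells, against 57979 stated in the labels, and 974 of 42757 distinct barcodes occurred in more than 1 library. Libraries held 1383 to 14136 cells with a median of 1630.0 to 3115 unique molecular identifiers (UMIs, 1 per captured transcript) per cell. Defining markers were highest where the names below place them, except that 2 of 6 intercalated markers, Slc26a4 and Foxi1, were highest in cluster 8: endothelial-like (cluster 1), podocyte-like (2), proximal tubule-like (3), loop of Henle-like (4), distal convoluted tubule-like (5), principal-like (6), intercalated-like (7), monocyte-like (10), macrophage-like (11), neutrophil-like (12), B lymphocyte-like (13), T lymphocyte-like (14) and natural killer-like (15). Cluster 1 also held the highest level of all 5 pericyte and smooth muscle markers and of the 3 measured fibroblast markers. Cluster 8 held markers of cluster 6 (principal markers summed to 3621 ± 1253 CPM there, against 12805 ± 5127 in cluster 6) and of intercalated cells, and stays unnamed. Clusters 9 and 16 were led by cycling markers, and 91.8% of the cells of cluster 9 came from library 5. Levels are CPM (counts of a gene per 1000000 UMIs of a library's summed cells in a cluster), given as mean ± SD over libraries. Intervals and limits cover counting error only.

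ENaC is the apical channel through which the late distal tubule and the collecting duct reabsorb sodium, and it is assembled from an alpha, a beta and a gamma subunit. Aldosterone binds the mineralocorticoid receptor, which raises transcription of the alpha subunit and of Sgk1, and Hsd11b2 inactivates glucocorticoids that would otherwise occupy the same receptor. Nedd4l attaches ubiquitin to the channel and draws it from the membrane, Sgk1 phosphorylates Nedd4l and weakens that binding, and vasopressin acting on Avpr2 adds channels and aquaporins to the same membrane.

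The contact between ligase and channel is written into the coding sequence of each subunit. Nedd4l binds a short proline-rich motif ending in tyrosine, the PY motif, and a search of the longest coding sequences found a single such motif in each subunit, near the stop codon, and a single motif in Sgk1. The stretches below are shown because they place the motifs of the subunits and of Sgk1 side by side. None is of the ligase itself. Capitals mark the 4 codons of the motif in 72 coding bases (GENCODE vM21, GRCm38, 5′ to 3′).
Scnn1a: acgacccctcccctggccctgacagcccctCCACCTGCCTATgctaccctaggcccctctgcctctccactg
Scnn1b: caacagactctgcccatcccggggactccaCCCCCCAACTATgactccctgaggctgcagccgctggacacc
Scnn1g: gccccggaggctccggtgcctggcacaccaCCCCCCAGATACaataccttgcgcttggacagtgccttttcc
Sgk1: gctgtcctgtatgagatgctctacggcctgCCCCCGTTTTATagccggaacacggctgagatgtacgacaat
The Scnn1a stretch is exonic, in exon 12 of 12 at chr6:125343966-125344037 on the plus strand, and its motif lies 26 codons before the stop. The Scnn1b stretch is in exon 13 of 13 at chr7:121917955-121918026, with 20 codons to the stop. The Scnn1g stretch is in exon 13 of 13 at chr7:121767439-121767510, with 22 codons to the stop, so both genes lie on the plus strand of chromosome 7. In Sgk1 the motif lies in exon 12 of 14, 133 codons before the stop, and the stretch spans an intron between 21997408 and 21997939 on chromosome 10.

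The alpha subunit Scnn1a was the most widely spread of the channel genes. It stood at 473 ± 67.6 CPM in cluster 8 (n = 4), 461 ± 68.4 in principal-like cells (n = 6), 242 ± 48.8 in intercalated-like cells, 193 ± 34.7 in distal convoluted tubule-like cells and 131 ± 16.7 in loop of Henle-like cells (n = 7 each). In proximal tubule-like cells it was 4.13 ± 1.55 CPM. The libraries of principal-like cells (376 to 545 CPM) lay above every library of intercalated-like cells (186 to 320 CPM), while the ranges of clusters 8 and 6, of 7 and 5, and of 5 and 4 overlapped. Summed over cells, 55.2% of all Scnn1a UMIs lay in distal convoluted tubule-like cells, 18.1% in intercalated-like cells and 13.1% in principal-like cells.

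The beta and gamma subunits were far more restricted. Scnn1b, which with gamma gives the channel its full activity, stood at 530.3 ± 75.2 CPM in principal-like cells, where libraries 1 to 6 gave 536, 464, 482, 620.1, 459 and 621. It was 279 ± 89.0 in cluster 8, 60.8 ± 15.6 in intercalated-like cells and 46.6 ± 20.8 in distal convoluted tubule-like cells, and each library of cluster 6 lay above each of cluster 8, which lay above each of cluster 7. Scnn1g stood at 359 ± 78.9 CPM in principal-like cells, with libraries 1 to 6 at 424, 412, 241, 284, 369.9 and 425. It was 241 ± 34.3 in cluster 8, 28.4 ± 17.4 in distal convoluted tubule-like cells and 9.0 ± 8.46 in intercalated-like cells. In loop of Henle-like cells both were near 0, at 1.44 ± 1.49 CPM for Scnn1b (7 UMIs) and 1.43 ± 1.98 for Scnn1g (5 UMIs), beside 507 UMIs of Scnn1a in the same cells.

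**Figure D1:**
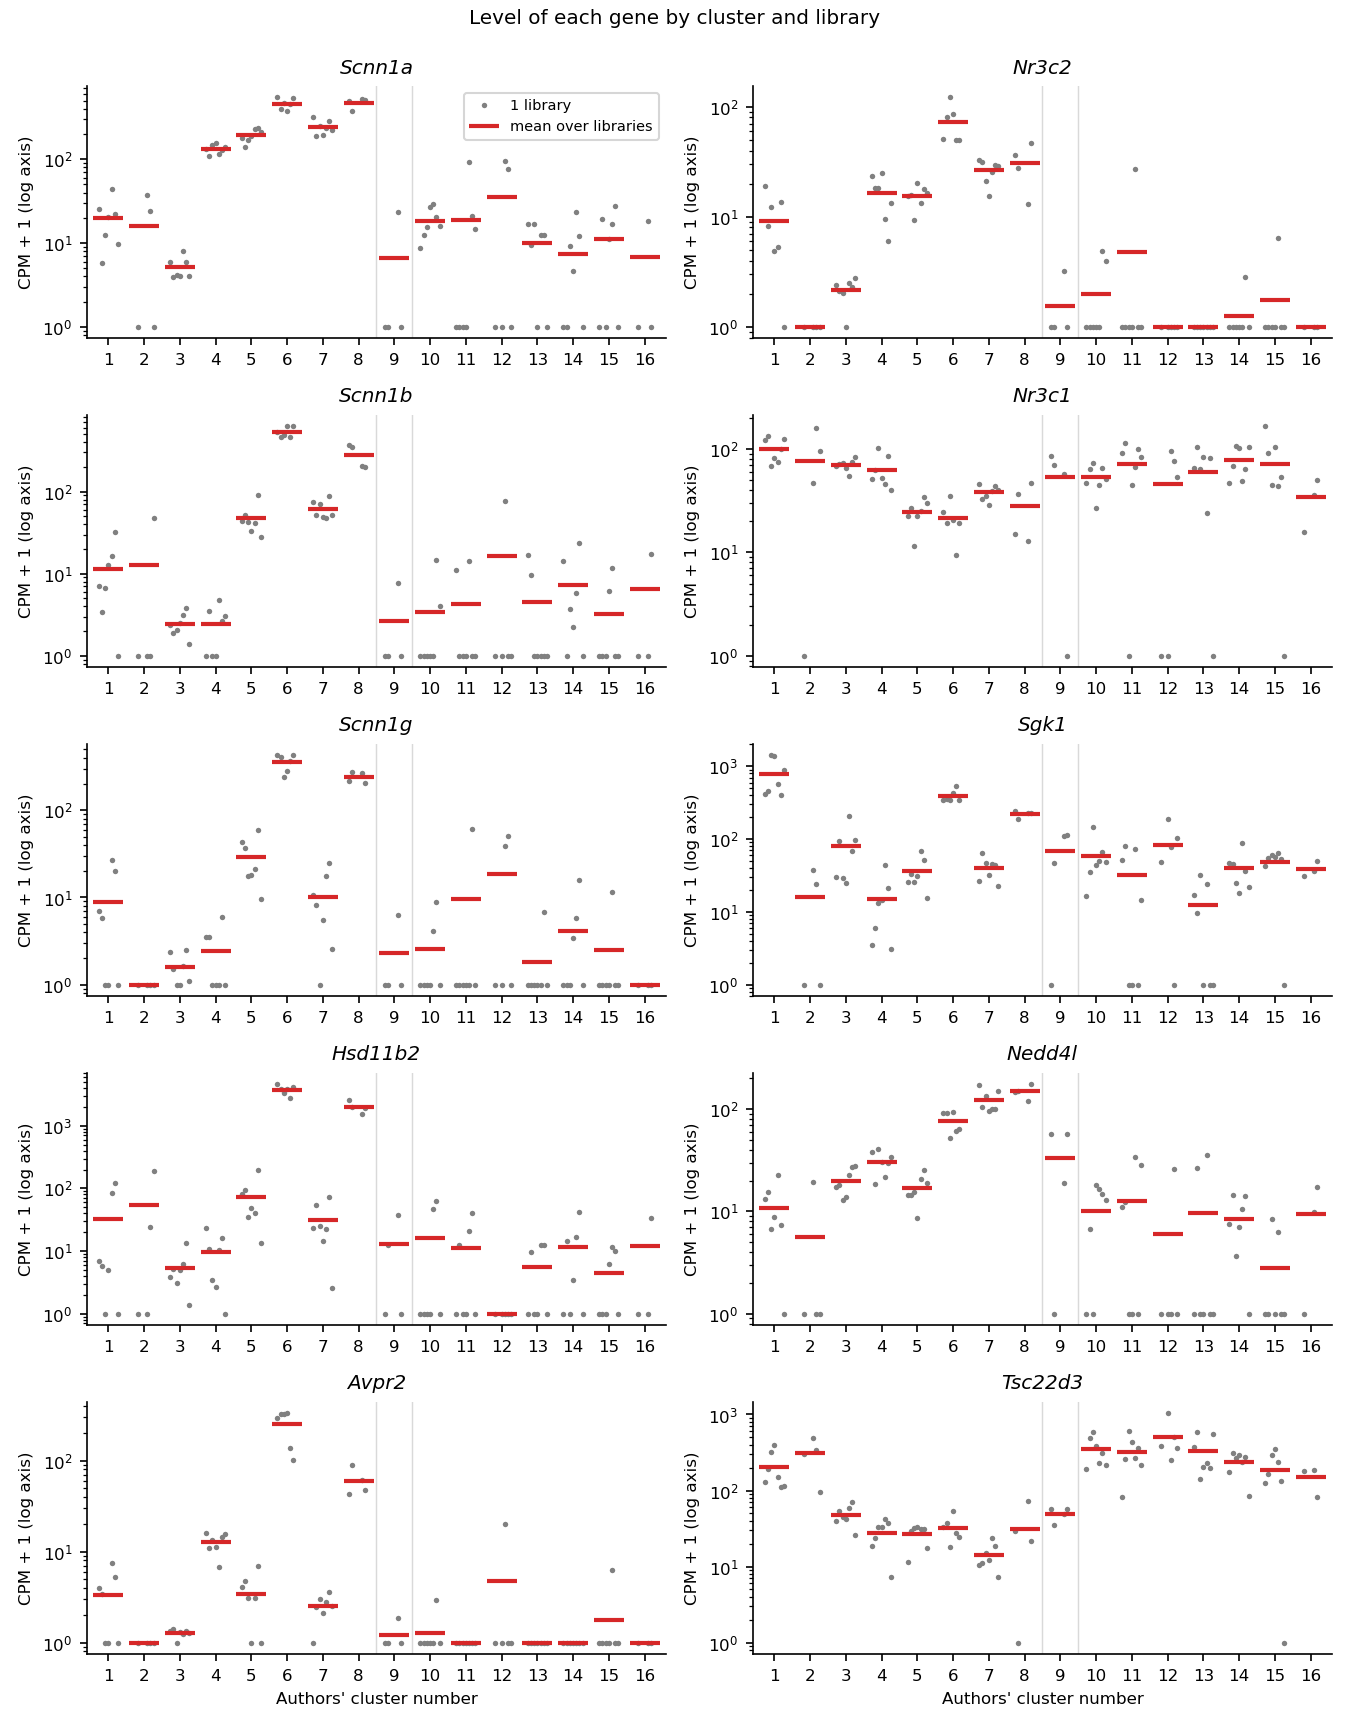
Level of each of the 10 genes (CPM + 1, log axis) against the authors' cluster number; grey points are single libraries and red bars the mean over libraries. Scnn1b, Scnn1g, Hsd11b2 and Avpr2 peak in cluster 6 with cluster 8 next, Scnn1a spreads over clusters 4 to 8, and Tsc22d3 is highest in immune and other non-tubule clusters.

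Single cells showed the same order. With every cell thinned to 1000 UMIs, 39.5% of principal-like cells (95% Wilson interval 36.3% to 42.9%) held a Scnn1a UMI, against 19.7% of intercalated-like, 18.1% of distal convoluted tubule-like and 12% of loop of Henle-like cells. Of other clusters, the share was 0.579% (0.492% to 0.681%) in proximal tubule-like, 2.15% (1.38% to 3.33%) in endothelial-like, 1.71% (0.901% to 3.21%) in monocyte-like and 4.62% (1.58% to 12.7%) in neutrophil-like cells. Whether such low shares are background or expression was not tested. Unthinned shares were 68.4%, 54.5%, 40.1% and 25.0% in the first 4 clusters, at median depths of 2894.5, 3917, 2438 and 2182 UMIs. They were 1.28%, 3.896%, 5.46% and 8.11% in the low-share clusters, at 2281, 1658, 2652 and 1453.5 UMIs.

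The share of cells with UMIs of all 3 subunits was highest in clusters 6 and 8. In number, distal convoluted tubule-like cells held 143 such cells without thinning, more than cluster 8. Without thinning, 306 of 870 principal-like cells (35.2%) and 44 of 110 cells of cluster 8 (40%) held UMIs of all 3 subunits, against 1.56% of intercalated-like, 1.67% of distal convoluted tubule-like and 0 of 1581 loop of Henle-like cells. Intercalated-like cells held Scnn1a alone in 41.4% of cells, and loop of Henle-like cells in 24.8%. Cells of cluster 8 were deeper (median 5330 UMIs) than principal-like cells (2894.5). After thinning, 15.95% of principal-like cells held Scnn1a alone, 15.2% Scnn1b alone and 5.12% all 3. The thinned share with all 3 in cluster 8 was lower, at 2.73% (3 of 110 cells). Within thinned principal-like cells the level of a subunit in cells with and without a UMI of another was compared in 5 libraries, for 6 ordered pairs. Scnn1g, for example, was 456 ± 71.4 CPM in cells with and 368 ± 95.6 in cells without a Scnn1a UMI, higher in 4 of 5 libraries. Scnn1b and Scnn1g ran the other way: Scnn1b was 506 ± 48.7 CPM in cells with and 551 ± 89.9 in cells without a Scnn1g UMI (higher in 1 of 5), and Scnn1g was 367 ± 94.6 and 409 ± 92.4 by Scnn1b (2 of 5). Directions changed without thinning. Scnn1b was then 541 and 539 CPM by Scnn1g (higher in 2 of 5) and Scnn1g 394 and 339 by Scnn1b (4 of 5). Scnn1b by Scnn1a was 521 and 587 (1 of 5). The exact two-sided sign permutation test gave adjusted p = 0.525 to 0.625 for the 6 thinned pairs, and 5 libraries cannot go below 0.0625.

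**Figure D2:**
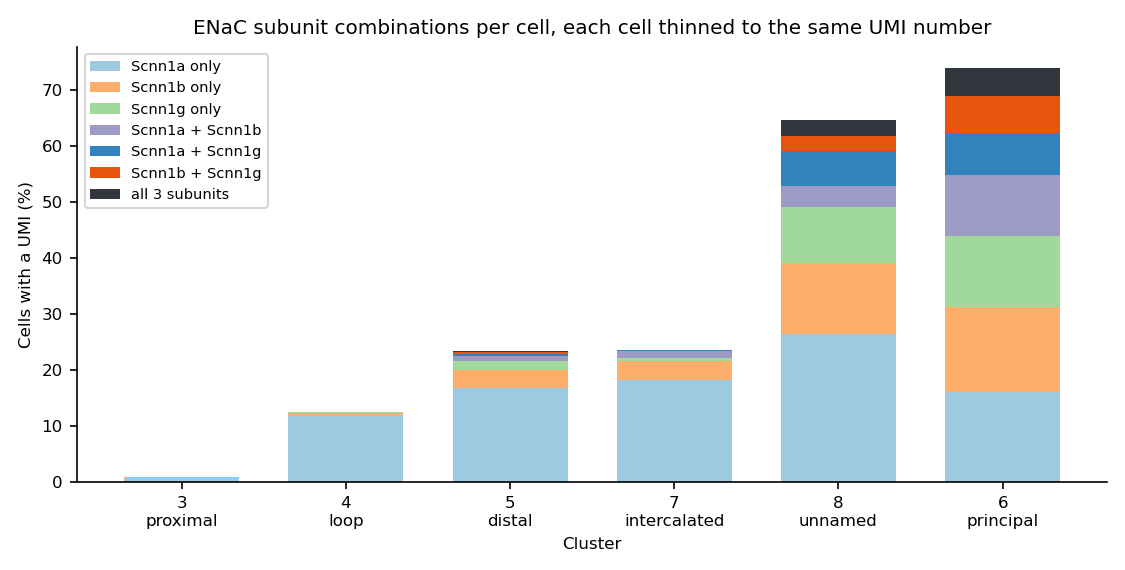
Share of cells (%) holding each combination of ENaC subunit UMIs in clusters 3 to 8, with each cell thinned to 1000 UMIs; stacked bars add up to the cells with any subunit. The loop of Henle-like bar is almost wholly Scnn1a alone, the intercalated-like bar holds 18.2% of cells with Scnn1a alone and 3.37% with Scnn1b alone, and the principal-like bar holds every combination.

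Counts summed per library and cluster were fitted in edgeR over 7952 genes with a term for each library. The authors drew the clusters from these same counts, so adjusted p-values between clusters are no independent evidence and the fold changes serve as description. Between principal-like and distal convoluted tubule-like cells, 9 of the 10 genes were called at an adjusted p under 0.05, 8 higher and 1 lower, against 26.3% of all genes tested (12.2% higher, 14.1% lower). Their median log2 difference was 2.39, and that of all genes was -0.01. Scnn1g was higher by 3.18 ± 0.21 (log2 ± SE), Scnn1b by 3.01 ± 0.20 and Scnn1a by 0.81 ± 0.18. Beyond the channel, Avpr2 was higher by 5.76 ± 0.28, Hsd11b2 by 5.32 ± 0.33, Sgk1 by 3.04 ± 0.29, Nedd4l by 1.77 ± 0.22 and Nr3c2 by 1.69 ± 0.26. Nr3c1 was lower by -1.02 ± 0.28 and Tsc22d3 was not called (-0.21 ± 0.30). Nr3c2 missed the filter without library 3 or 4, with cells thinned to 1000 UMIs and without the 6% of cells with the most UMIs. This held here and in the comparisons with intercalated-like, proximal tubule-like and immune clusters below. The Nr3c1 call was lost without library 5 (log2 -0.73, adjusted p = 0.106) and with plain library totals in place of TMM scaling (log2 -0.63, adjusted p = 0.0646).

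Against intercalated-like cells, all 10 genes were called, 8 higher in principal-like cells and 2 lower, beside 25% of all genes (12.3% higher, 12.7% lower). Scnn1g was higher by 4.85 ± 0.24 and Scnn1b by 2.91 ± 0.21, while Scnn1a was higher by only 0.76 ± 0.18. Nedd4l was lower by -0.79 ± 0.20 and Nr3c1 by -1.29 ± 0.28. Tsc22d3 was higher by 0.90 ± 0.34 (adjusted p = 0.0383), a call lost without library 1, 2 or 4 (adjusted p = 0.115, 0.142 and 0.128), without the low-count filter (0.0709), without the library term (0.0762) and without the 6% of cells with the most UMIs (0.0637).

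Further up the nephron, the step from loop of Henle-like to distal convoluted tubule-like cells had 5 of the 10 genes higher and 2 lower, with 12.8% of all genes called (6.75% higher, 6.01% lower). Scnn1b rose by 4.87 ± 0.41, Scnn1g by 4.60 ± 0.45, Hsd11b2 by 3.28 ± 0.44, Sgk1 by 1.44 ± 0.36 and Scnn1a by 0.78 ± 0.18. Avpr2 fell by 1.70 ± 0.36 and Nr3c1 by 1.01 ± 0.19. Nr3c2 (0.24 ± 0.28), Tsc22d3 (0.14 ± 0.27) and Nedd4l (-0.53 ± 0.23) did not pass, though Nedd4l passed without library 5 (log2 -0.75, adjusted p = 0.0463) and with library totals (log2 -0.77, adjusted p = 0.0100). From proximal tubule-like to distal convoluted tubule-like cells, 6 genes were higher and 3 lower beside 52.5% of all genes called (26.6% higher, 25.9% lower): Scnn1a rose by 5.59 ± 0.21 and Nr3c2 by 3.49 ± 0.26, and Nr3c1 fell by 1.34 ± 0.16.

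With library totals the median gene moved by 0.39, 0.12 and -0.24 on the log2 scale in the principal-to-distal, principal-to-intercalated and distal-to-loop comparisons. No called gene of the list changed direction under that scaling. Tsc22d3, which was not called, changed sign in the first (-0.21 to 0.19) and the last (0.14 to -0.10).

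**Figure D3:**
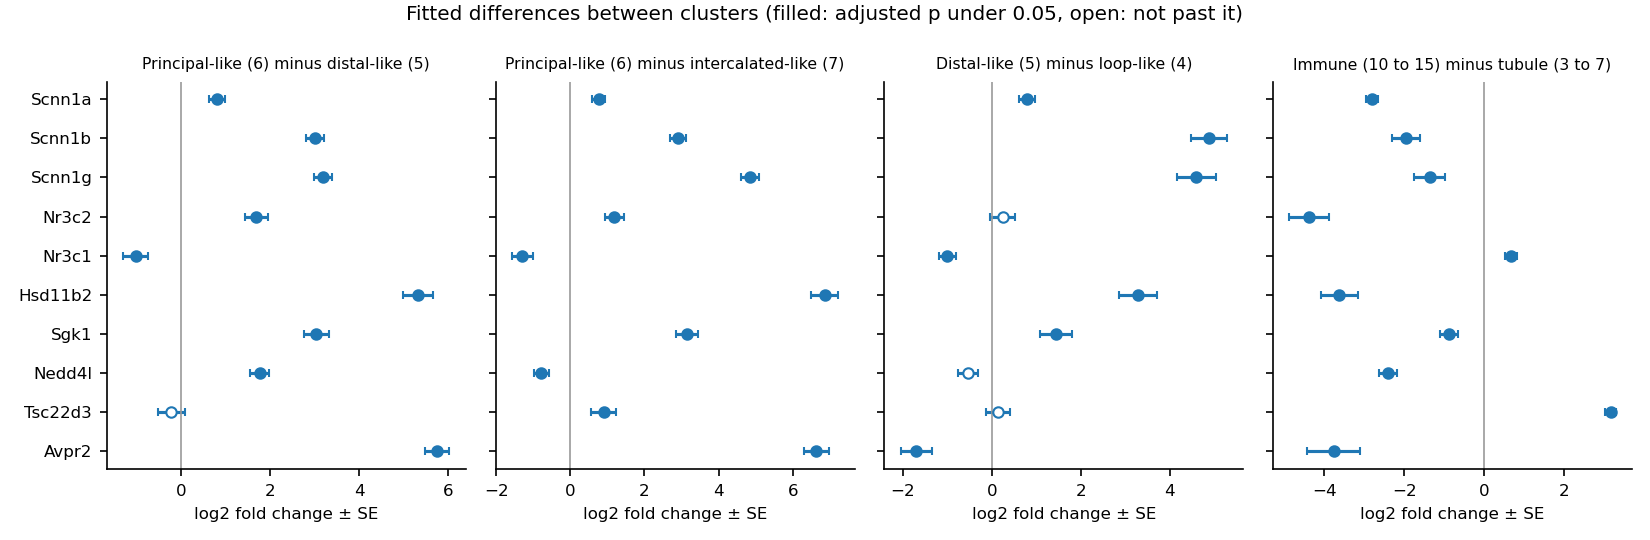
Log2 fold change ± SE of each gene in 4 comparisons between clusters, fitted in edgeR on library sums; filled points have an adjusted p under 0.05 and open points do not. Nr3c1 runs against the channel genes in each panel, and the immune panel has only Tsc22d3 and Nr3c1 to the right of 0.

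Distal convoluted tubule-like cells were then divided without using any of the 10 genes. Late cells held more UMIs of Calb1, Slc8a1, Trpv5 and S100g than of Pvalb, and early cells fewer; the former genes mark the calcium-transporting end of the segment. This gave 7660 late and 562 early cells in 7 libraries, at median depths of 2516 and 1963 UMIs. The division is unbalanced, and its late class includes many cells that the division by Slc8a1 and Trpv5 below calls early (3966 early cells there). Scnn1b stood at 51.9, 55.8, 63.6, 52.9, 42.3, 92.9 and 32.4 CPM in late cells of libraries 1 to 7, and at 0, 0, 11, 0, 2.97, 17.4 and 16.4 in early cells. The ranges did not overlap, and every library was higher in late cells. Its log2 difference was 3.06 ± 0.40 (adjusted p = 8.08e-09), and it was 1 of only 2 genes of the list that passed the low-count filter, beside 6.52% of all genes called (3.17% higher, 3.35% lower). Scnn1a, the other, was 195 ± 34.9 CPM in late and 163 ± 48.5 in early cells (log2 0.31 ± 0.12, adjusted p = 0.122).

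Scnn1g and Hsd11b2 missed that filter. Scnn1g counted 668 UMIs in late and 2 in early cells (33.9 ± 17.6 and 1.23 ± 2.21 CPM), and Hsd11b2 counted 1652 and 7 (84.6 ± 61.0 and 3.99 ± 4.84 CPM). Each was higher in late cells in 7 of 7 libraries. Without the filter both were called, Scnn1g at 4.28 ± 0.61 and Hsd11b2 at 3.73 ± 0.38, beside 1.36% of all genes (1.14% higher, 0.223% lower). In the filtered fit the kallikrein gene Klk1, of the protease list, was higher in late cells by 4.12 ± 0.10. Summed principal markers were 51.7 ± 35.9 CPM in late cells (range 4.72 to 118) and 22.4 ± 21.7 in early cells (0 to 50.7), with none of the 4 at 0. After removal of cells with any UMI of Aqp2, Fxyd4 or Apela, late cells held 47.6 ± 13.6 CPM of Scnn1b, 25.7 ± 15.2 of Scnn1g and 45.3 ± 34.7 of Hsd11b2, against 6.97 ± 8.13, 1.24 ± 2.22 and 2.36 ± 3.55 in early cells. All 3 were higher in late cells in 7 of 7 libraries, and the late-cell Hsd11b2 level was lower than before removal. Scnn1b then missed the filter and was not fitted.

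A more balanced division by Slc8a1 and Trpv5 alone, added after the data were seen, gave 847 late and 3966 early cells and 5 libraries with both. It let 9 of the 10 genes through the filter, of which 5 were higher and 1 lower in late cells, beside 15.7% of all genes called (7.1% higher, 8.59% lower). Scnn1b stood at 176 ± 53.8 against 13.4 ± 4.81 CPM (log2 3.59 ± 0.16), Scnn1g at 114 ± 53.0 against 3.92 ± 3.6 (4.83 ± 0.24) and Hsd11b2 at 269 ± 188 against 10.5 ± 10.1 (4.28 ± 0.18). Scnn1a was higher by 0.41 ± 0.11 and Sgk1 by 0.82 ± 0.17, and Nr3c1 was lower by -0.79 ± 0.26 (11.8 ± 8.81 against 29.8 ± 6.43 CPM, lower in 5 of 5 libraries). Summed principal markers were 81.7 ± 55.7 CPM in these late cells (0 to 144) and 22.3 ± 14.4 in early cells (1.65 to 36.9), and their part in these differences was not tested. Nr3c2 (0.48 ± 0.26) and Nedd4l (0.36 ± 0.24) did not pass.

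Within intercalated-like cells alpha and beta came apart. Cells with more UMIs of Slc4a1, Aqp6 and Kit than of Slc26a4, Insrr and Hmx2 were taken as type A (684 cells), the acid-secreting kind, and the reverse as type B (986 cells), the base-secreting kind, at median depths of 3636 and 4536.5 UMIs. Scnn1a was 231 ± 46.3 CPM in type A and 249 ± 69.7 in type B, with overlapping ranges and a log2 difference of -0.01 ± 0.11. Scnn1b in type A read 206, 122, 138, 82.3, 139, 162 and 109.8 CPM in libraries 1 to 7, and in type B 9.67, 21.4, 3.92, 12.3, 15.2, 26.2 and 10.8. The lowest type A library was above the highest type B library, and the log2 difference was 3.08 ± 0.18 (adjusted p = 3.72e-23). Of 6 listed genes that passed the filter, 2 were higher and 1 lower in type A, beside 21.6% of all genes (11.1% higher, 10.5% lower).

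The lower gene was Sgk1, at 22.9 ± 12.5 CPM in type A and 50.4 ± 18.1 in type B, lower in each of 7 libraries (log2 -0.94 ± 0.22, adjusted p = 0.000853). Nedd4l did not differ beyond its error (127 ± 27.1 and 121 ± 37.7 CPM, log2 0.20 ± 0.13, adjusted p = 0.286). Hsd11b2 was called higher in type A (log2 1.00 ± 0.27, adjusted p = 0.00478) but was above type B in only 4 of 7 libraries, at 44.0 ± 49.4 and 24.3 ± 14.1 CPM. That call was lost without library 2 (log2 0.79, adjusted p = 0.0528), and without library 5 or 6 the gene missed the filter. Scnn1g counted 51 UMIs in type A and 44 in type B and was not tested.

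Summed principal markers were 156 ± 59.2 CPM in type A (64.4 to 241) and 235 ± 63.6 in type B (133 to 334), but most of each sum was Aqp3 (126 ± 31.1 and 215 ± 57.7). The other 3, Aqp2, Fxyd4 and Apela, summed to 30.5 ± 33.5 CPM in type A and 20.3 ± 10.3 in type B, higher in type A in 4 of 7 libraries. With cells holding Aqp2, Fxyd4 or Apela UMIs removed, so that these 3 were at 0, Scnn1b was 129.6 ± 38.2 CPM in type A and 13.95 ± 8.24 in type B (log2 3.02 ± 0.19, adjusted p = 1.9e-19). Sgk1 then differed by -1.13 ± 0.24, and Hsd11b2, at 13.3 ± 16.1 and 14.03 ± 10.4 CPM, missed the filter.

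**Figure D4:**
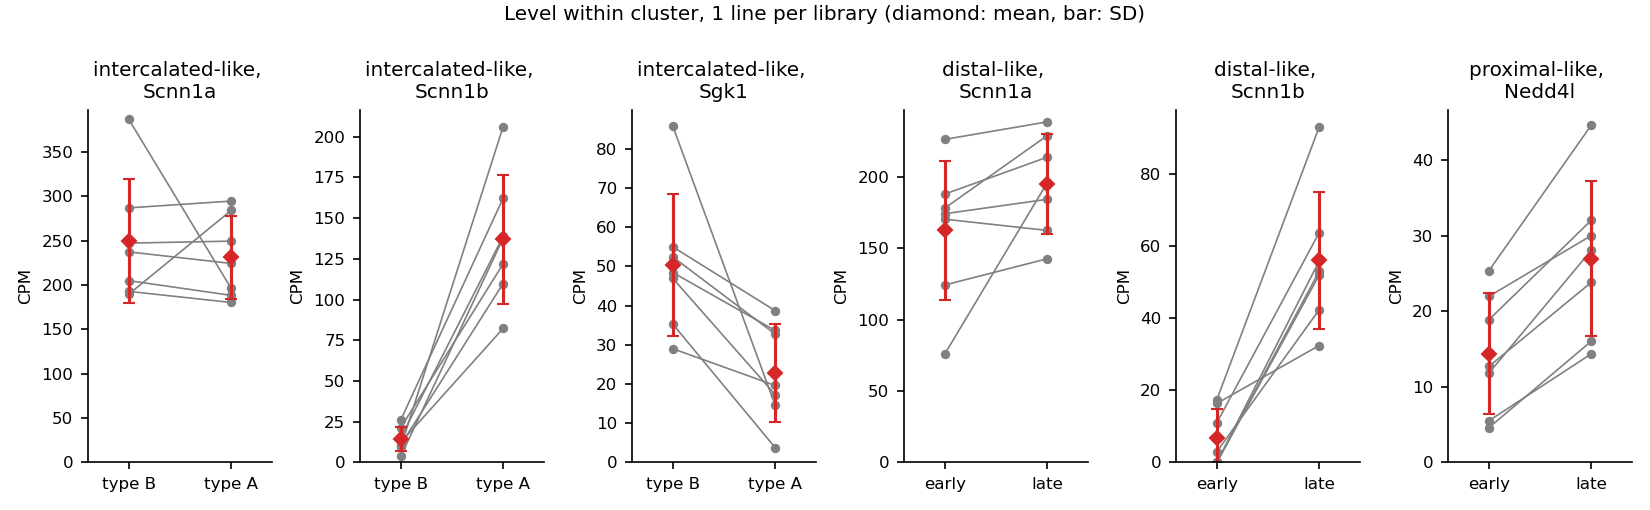
CPM of Scnn1a, Scnn1b and Sgk1 in type B and type A cells of cluster 7, of Scnn1a and Scnn1b in early and late cells of cluster 5, and of Nedd4l in early and late cells of cluster 3. Each grey line is a library and red diamonds with bars are means ± SD; Scnn1b lines rise in all 7 libraries of both clusters while Scnn1a lines cross.

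Principal-like cells themselves were divided into 639 cells with more Calb1, Slc8a1, Trpv5 and S100g and 202 with more Aqp3 and Aqp4 UMIs, which mark the connecting tubule and the collecting duct. Of 8 listed genes tested in 4 libraries with both classes, only Avpr2 was called, beside 10.6% of all genes (5.19% higher, 5.38% lower). Avpr2 stood at 156 ± 60.8 CPM in connecting tubule-marker cells and 302 ± 111 in collecting duct-marker cells, lower in 4 of 4 libraries (log2 -0.68 ± 0.18, adjusted p = 0.0177). The call was lost without library 1, 2 or 5 (adjusted p = 0.0799, 0.106 and 0.0906). The 3 subunits (log2 0.40 to 0.50, adjusted p = 0.0617 to 0.144) and Hsd11b2 (0.31 ± 0.10, adjusted p = 0.0547) did not pass. In CPM, connecting tubule-marker cells were higher in only 2 of 4 libraries for Scnn1b (549 ± 102 and 514 ± 207) and Scnn1g (409 ± 27.9 and 362 ± 90.7). The same held for Hsd11b2 (3889.5 ± 858 and 3887.5 ± 1016). Scnn1a was higher in 3 of 4 (477 ± 35.3 and 419 ± 135). Without library 6, Scnn1b (0.62, adjusted p = 0.0123) and Hsd11b2 (0.36, adjusted p = 0.0233) passed, and without library 1, Scnn1a did (0.76, adjusted p = 0.0118). Mitochondrial genes took 25.0% of UMIs in connecting tubule-marker cells and 14.4% in collecting duct-marker cells, 4 of 5 tested immediate early genes were lower in the former (Fos by -2.03 ± 0.23), and library totals moved the median gene by -0.33 and the differences of Hsd11b2, Sgk1 and Nedd4l, none of them called, below 0 (-0.02, -0.08 and -0.24). Their part in these values was not tested. Klk1 was higher by 5.76 ± 0.18 in connecting tubule-marker cells.

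The 2 receptors had their highest tubule levels in different clusters. Nr3c2 was 72.2 ± 28.8 CPM in principal-like cells, with libraries 1 to 6 at 50.1, 79.2, 120.4, 85.8, 48.6 and 49.0, all above the 4 libraries of cluster 8 (30.001 ± 14.4). It was 25.5 ± 6.25 in intercalated-like, 15.3 ± 7.01 in loop of Henle-like, 14.5 ± 3.46 in distal convoluted tubule-like and 1.16 ± 0.57 in proximal tubule-like cells. Nr3c1 was lowest in principal-like cells of all 16 clusters, at 20.4 ± 8.46 CPM from 41 UMIs, next to 23.8 ± 7.24 in distal convoluted tubule-like cells, and the ranges overlapped. It reached 99.9 ± 26.0 in endothelial-like, 69.4 ± 9.24 in proximal tubule-like and 62.0 ± 22.9 in loop of Henle-like cells, and 70.0% of its UMIs lay in proximal tubule-like cells.

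Hsd11b2, the enzyme that shields the receptor, had 71.7% of its UMIs in principal-like cells, 12.3% in distal convoluted tubule-like cells and 8.68% in cluster 8. It stood at 4592, 3926.5, 3304, 3899, 2738 and 4183 CPM in principal-like cells of libraries 1 to 6 and at 2604, 2004, 1517 and 1913 in cluster 8 of libraries 1, 2, 5 and 6. Distal convoluted tubule-like cells followed at 72.0 ± 61.8, with library 6 at 197 and library 7 at 12.2 CPM. Every library of principal-like cells was above every library of cluster 8, and both were above all of cluster 5. With thinning, 93.1% of principal-like cells held a Hsd11b2 UMI, against 4.27% of distal convoluted tubule-like, 0.639% of proximal tubule-like and 1.81% of endothelial-like cells. Intercalated-like cells, which held 242 ± 48.8 CPM of Scnn1a, had 30.01 ± 24.6 CPM of Hsd11b2.

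Sgk1, the kinase that aldosterone and glucocorticoids induce, was high in separate compartments. Endothelial-like cells held 420.3, 459.8, 1416, 1395, 572, 407 and 887 CPM in libraries 1 to 7, so libraries 3, 4 and 7 stood above the rest. Principal-like cells held 392 ± 79.1 CPM (340 to 539), cluster 8 held 221 ± 23.8 and every other cluster averaged 83.4 CPM or less. Endothelial-like cells were set against the average of the fitted log2 levels of the tubule and collecting duct clusters 3 to 7. That average is not the log2 of their mean CPM. In mean CPM, Scnn1g was 7.99 against 79.7 and Hsd11b2 31.7 against 778. On the log2 scale endothelial-like cells had 3 listed genes higher and 5 lower, beside 48.1% of all genes called (25.8% higher, 22.3% lower). The higher ones were Sgk1 (log2 3.45 ± 0.18), Tsc22d3 (2.45 ± 0.18) and Nr3c1 (1.08 ± 0.16). Scnn1a (-2.69 ± 0.23), Nedd4l (-2.06 ± 0.27) and Scnn1b (-1.16 ± 0.36) were lower. Nr3c2 (-0.95 ± 0.33) lost its call without library 5 or 7 (adjusted p = 0.0705 and 0.0689). It missed the filter without library 3 or 4, with thinned cells and without the 6% of cells with the most UMIs. Hsd11b2 (-0.88 ± 0.33) lost its call without library 1, 2, 3 or 4 (adjusted p = 0.0553 to 0.138) and without the library term (0.24). Library totals ended both calls (-0.60 and -0.57, adjusted p = 0.147 and 0.149). Scnn1g (-0.36 ± 0.42) and Avpr2 (-1.19 ± 0.54) were not called, but both passed without library 5 (-1.08 and -1.74, adjusted p = 0.041 and 0.0317). That scaling moved the median gene by 0.37 here.

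Immediate early genes, which dissociation of tissue is known to induce, were counted in the same way. In endothelial-like cells 8 of 10 were higher than in the tubule clusters (25.8% of all genes higher), led by Dusp1 at 2.86 ± 0.19. In principal-like against distal convoluted tubule-like cells 7 of 10 were higher and 1 lower (12.2% and 14.1% of all genes). Egr1 was higher there by 5.52 ± 0.46 and Fos by 4.12 ± 0.43. Sgk1 was higher in both comparisons. In the immune clusters 10 to 15 against the tubule clusters, 7 of 10 immediate early genes were also higher (16% of all genes), but Sgk1 was lower by -0.88 ± 0.23. The part of immediate early genes in the Sgk1 values was not tested. In endothelial-like cells split by Ehd3 (glomerular) and Plvap (peritubular) UMIs only 2 libraries held both classes. Sgk1 was 618 and 908 CPM in Ehd3 cells and 422 and 491 in Plvap cells (log2 0.72 ± 0.27, adjusted p = 0.298). Hsd11b2 was the only gene of 4 tested that was called (log2 -2.61, adjusted p = 0.0221, 2.04% of all genes called, 1.05% higher and 0.99% lower), with 127 CPM in the Ehd3 and 784 CPM in the Plvap class (26 UMIs) of library 6 and 0 in library 2, and the call was lost without the filter (adjusted p = 0.0558) and with DESeq2. Summed principal markers in that class were 46.0 and 874 CPM in the 2 libraries.

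In proximal tubule-like cells Sgk1 averaged 78.6 ± 65.7 CPM with library 5 at 209.9 and libraries 1, 3 and 4 between 23.6 and 29.6. Across the 7 libraries its level had a Pearson r of 0.77 with the summed corticosteroid target genes (exact permutation p = 0.0472, adjusted 0.189; Spearman rho 0.61, p = 0.167, adjusted 0.667), and r was 0.17 without the 2 libraries farthest from the median. Its r with the summed immediate early genes was 0.20 (exact permutation p = 0.684; rho 0.21, p = 0.662). Tsc22d3 gave r = 0.25 (p = 0.584; rho 0.04, p = 0.963) and r = 0.50 (p = 0.255; rho 0.32, p = 0.498) in the same exact permutation tests; r was 0.80 and -0.31 without the 2 farthest libraries. None of the 4 relations passed after adjustment (0.189 to 0.684 for r).

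Nedd4l, the ligase, was highest in cluster 8 and in intercalated-like cells. It was 148 ± 22.1 CPM in cluster 8, and in intercalated-like cells it read 173, 105, 134, 95.2, 99.5, 100.2 and 151 in libraries 1 to 7. Each of these was above every library of principal-like cells (75.0 ± 18.4, 51.6 to 92.4). Loop of Henle-like, proximal tubule-like and distal convoluted tubule-like cells followed at 29.5 ± 8.21, 18.9 ± 6.00 and 15.9 ± 5.39 with overlapping ranges. Within proximal tubule-like cells, 6427 late cells (Slc7a13, Atp11a, Cyp7b1 and Slc22a7 above Slc5a2, Slc5a12, Slc7a7 and Slc6a19) held 27.0 ± 10.3 CPM of Nedd4l and 14177 early cells 14.4 ± 7.99. It was higher in 7 of 7 libraries (log2 0.73 ± 0.12, adjusted p = 3.92e-05), the only call among 6 listed genes tested, beside 24.4% of all genes (13.1% higher, 11.3% lower). Nr3c1 (-0.09 ± 0.09), Sgk1 (-0.18 ± 0.20) and Tsc22d3 (-0.11 ± 0.11) were not called there. Between Cldn10 and Cldn16 or Cldn19 cells of the loop of Henle-like cluster, neither Scnn1a (120.4 ± 19.99 and 144 ± 31.3 CPM, log2 -0.24 ± 0.16) nor Nr3c1 (0.43 ± 0.24) was called by edgeR (unadjusted p = 0.142 and 0.0801) or by DESeq2, beside 7.78% of all genes (3.57% higher, 4.21% lower), and the other 8 genes missed the filter.

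Tsc22d3, which encodes the glucocorticoid-induced leucine zipper and is also used as a readout of corticosteroid action, was highest in immune, podocyte-like and endothelial-like cells. Neutrophil-like cells held 507 ± 310.3 CPM (5 libraries), monocyte-like 346 ± 152, B lymphocyte-like 325 ± 180, macrophage-like 319 ± 170, podocyte-like 306 ± 162, T lymphocyte-like 233 ± 79.2, endothelial-like 202 ± 113 and natural killer-like 186 ± 117. All neighbouring ranges in that order overlapped. Proximal tubule-like cells held 47.0 ± 14.6, principal-like 31.4 ± 12.4 and intercalated-like cells 13.1 ± 5.51, the lowest level. Immune clusters 10 to 15 were likewise compared with the tubule and collecting duct clusters as averages of fitted log2 levels. They exceeded those clusters by 3.17 ± 0.13 in Tsc22d3 and by 0.69 ± 0.15 in Nr3c1, while the other 8 genes were lower, beside 60.6% of all genes called (16% higher, 44.7% lower) and a median of all genes of -0.38. Library totals moved that median to -0.20, and 7 of 10 immediate early genes were also higher in the immune clusters. Hsd11b1, which regenerates active glucocorticoid, was higher in the immune clusters by 3.93 ± 0.90 on average and reached 191 ± 73.3 CPM in natural killer-like cells. Its mean was 75.9 CPM in T lymphocyte-like and 22.1 in B lymphocyte-like cells. Monocyte-like, neutrophil-like and macrophage-like cells held only 12.3, 8.82 and 6.27. Proximal tubule-like cells held 10.3, and the other tubule and collecting duct clusters at most 1.96.

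A promoter search was made because Sgk1 and Tsc22d3 are known receptor targets. The glucocorticoid response element was spelled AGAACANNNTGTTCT, which is its own reverse complement, and its half-site was the first 6 letters of that motif, on either strand, so the full motif holds it too. RefSeq windows of 300 bases (GRCm38.p6) were matched for 6 of the 10 genes, 13 windows in all. The full motif was in 1 of these 13 and in 3 of 32851 windows of all genes (0.00913%). It lay 189 to 175 bases before the Sgk1 start at position 21993890 of chromosome 10, inside introns of longer Sgk1 transcripts, and is shown with 60 bases on each side, the motif in capitals, from chr10:21993641-21993775 on the plus strand.
Sgk1 promoter: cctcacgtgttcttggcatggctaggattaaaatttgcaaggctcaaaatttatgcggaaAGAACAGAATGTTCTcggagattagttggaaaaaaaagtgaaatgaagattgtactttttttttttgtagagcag
A half-site was in 5 of the 13 windows (of Sgk1, Avpr2 and Tsc22d3), and in 19.0% of all windows. A match describes letters in a window and shows no binding.

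Avpr2, the receptor by which vasopressin raises cyclic AMP, was 289, 326, 327, 329.8, 135 and 99.9 CPM in principal-like cells of libraries 1 to 6, so libraries 5 and 6 stood apart below the others. Cluster 8 held 59.3 ± 21.0 and loop of Henle-like cells 11.6 ± 3.25 CPM from 42 UMIs, and all remaining clusters averaged 3.81 CPM or less. Ranges of clusters 6, 8 and 4 did not overlap. The thinned share of cells with a UMI was 17.1% in principal-like cells, 0.806% in loop of Henle-like cells (0.462% to 1.4%), 0.0281% in proximal tubule-like and 0.452% (0.176% to 1.16%) in endothelial-like cells, so the loop share did not stand apart from the endothelial-like one at this depth. By unthinned library sums, endothelial-like cells averaged 2.31 CPM with a highest library of 6.53, and the lowest library of loop of Henle-like cells was 5.7.

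Among partners of the pathway, 4 of 10 tested vasopressin signalling genes were higher and 0 lower in principal-like against distal convoluted tubule-like cells (median 0.41), led by Aqp4 (7.94 ± 0.51), Aqp2 (7.53 ± 0.36) and Aqp3 (6.95 ± 0.35). In that comparison 26.3% of all genes were called (12.2% higher, 14.1% lower), the share to set beside each list here. Against intercalated-like cells 5 vasopressin signalling genes were higher and 2 lower, beside 25% of all genes (12.3% higher, 12.7% lower). The V1a receptor Avpr1a was lower there by -6.66 ± 0.45. Of 8 tested aldosterone targets of the distal nephron, 2 were higher and 3 lower in principal-like than in distal convoluted tubule-like cells. Fxyd4, a sodium pump regulator, was higher by 8.47 ± 0.39 and Edn1 by 1.99 ± 0.53, while Ndrg2 was lower by -1.27 ± 0.29. Aqp2, Aqp3 and Fxyd4 are among the markers by which cluster 6 was named principal-like, so their high levels there were set by that naming. Of 11 tested corticosteroid target genes, 7 were lower and 1 higher (median -0.97): Mt1 and Mt2, the metallothioneins, by -1.69 ± 0.29 and -1.54 ± 0.32, and Errfi1 by -1.30 ± 0.26. Sgk1 stood at 3.04 ± 0.29 in the same comparison.

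In principal-like against distal convoluted tubule-like cells, 2 of 8 tested turnover genes were higher and 3 lower (median -0.06), beside 26.3% of all genes called (12.2% higher, 14.1% lower). Sgk2, a relative of Sgk1, was lower by -1.82 ± 0.27 and the deubiquitinase Usp2 by -1.10 ± 0.24, and Pdpk1, the kinase that activates Sgk1, was higher by 0.58 ± 0.22. Of 8 tested proteases and inhibitors that cleave ENaC or block its cleavage, 0 were higher and only Klk1 was lower (-1.47 ± 0.40). From proximal tubule-like to distal convoluted tubule-like cells, 5 were higher and 3 lower, beside 52.5% of all genes called (26.6% higher, 25.9% lower). Klk1 at 5.94 ± 0.44 and the matriptase gene St14 at 5.41 ± 0.22 were higher and Serpine2 at -2.63 ± 0.44 lower. Type A cells held less Sgk2 than type B cells (-1.92 ± 0.21) and more Usp2 (0.69 ± 0.16). Of 13 tested receptor chaperones and coregulators, 2 were higher and 2 lower in principal-like against distal convoluted tubule-like cells, beside the same 26.3% of all genes. Fkbp5 was lower by -1.14 ± 0.29 and H6pd, which supplies cofactor to Hsd11b1, higher by 0.72 ± 0.26.

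The genes whose pattern over the 16 clusters was most like each member were taken by Pearson r of log2(mean CPM + 10), as a description. Scnn1a ran with the claudin Cldn8 (0.97) and Tmem213 (0.97). Scnn1b ran with A930017K11Rik (0.95), Scnn1g (0.95) and the ammonia channel Rhcg (0.95), and Scnn1g with A930017K11Rik (0.97), Kcne1 (0.95) and Scnn1b. Hsd11b2 ran with Aqp2 (0.97), Stc1 (0.96) and Kcne1 (0.96), and Avpr2 with Efna4 (0.98), Col26a1 (0.98) and Aqp4 (0.97). Nr3c2 ran with Mal2, AI661453 and Frk (0.97, 0.97 and 0.96). Nedd4l ran with Cox7a1 (0.94), the proton pump gene Atp6v1a (0.93) and Shroom2 (0.93). Sgk1 ran with Mpped2 (0.92), Efnb2 (0.88) and Ppic (0.88), Tsc22d3 with Gsdmd (0.93), Ier5 (0.92) and Gpsm3 (0.90), and Nr3c1 only up to 0.79, with Srsf5, followed by Kcnq1ot1 (0.76) and Gm11713 (0.76). All of these points share libraries and depth.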

How the data were processed

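Droplet single-cell libraries from 7 mouse kidneys were analysed. The authors deposited a matrix of UMI counts per gene and cell with their cluster number for each cell; per the submitters' processing notes, Cell Ranger 1.3, STAR and the builds mm10 and GRCm38.p4 were used, with no role given. Here counts were summed per library and cluster (at least 5 cells) or class (at least 20 cells) and tested with edgeR 4.0.16 (quasi-likelihood, TMM, a term for each library, its default low-count filter, Benjamini-Hochberg adjustment at 0.05). The procedure was tested on simulated data: of 4-fold changes 86% were recovered for principal-like against distal cells and 100% for type A against type B, and of 2-fold changes 45.1% and 86%. Of unchanged genes, 6 and 3 were called. The simulated counts had the same dispersion for every gene and no difference between libraries other than depth, so these shares may not hold for the real counts. Shares of cells used cells thinned to 1000 UMIs, leaving out 2494 shallower cells of all clusters. Doublets were not removed; leaving out the highest 6% of cells by UMIs is an alternative, beside those of the closing section.

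Named are all 10 members, the 3 genes most like each (among genes with a highest cluster mean of at least 50 CPM), and up to 4 genes per list with the largest fold among those called. Members and lists were chosen with earlier results of these data known. A few genes and labels that this rule or the study names are not reported here.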

Additional observations from a re-analysis of the deposited data

Results flagged for a closer look

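Of 80 groups of 4 to 7 libraries with at least 5 UMIs per library on average, 11 held a library that stood apart by Dixon's criterion on the gap to its nearest neighbour; chance gives about 1 in 20. Library 6 was the highest for Hsd11b2 in 3 clusters: 12.5 CPM in cluster 3 (next 5.28), 197 in cluster 5 (next 92.2) and 41.0 in cluster 14 (next 15.996). It was also the highest for Scnn1b in cluster 5, at 90.4 CPM (next 51.3).

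Library 5 was the highest for Sgk1 in cluster 3 at 209.86 CPM (next 97.1) and in cluster 14 at 88.0 (next 46.3), and for Scnn1a in cluster 9 at 22.5 with the other 3 libraries at 0. As library 5 gave 91.8% of the cells of cluster 9, those 0 values rest on few cells and cannot show that it stands apart. Library 3 was the highest for Sgk1 in cluster 10 at 144 CPM (next 64.7). Low libraries were library 2 for Scnn1a in cluster 8 at 372 CPM (next 499.7), library 4 for Nr3c2 in cluster 3 at 0 (next 1.04) and library 7 for Sgk1 in cluster 15 at 0 (next 41.1).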

How the results depend on the processing

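Over all alternatives, 1123 of 1167 member fold changes kept their side of the threshold, 33 lost their call and 11 gained one. No called value reversed, and 15 values that were not called changed sign, 5 of them with library totals. In the early and late distal division 1 member was called, against 3 without the low-count filter, 6 with the other markers, 0 with thinned cells, with DESeq2 (Scnn1b had no adjusted p) or with Aqp2, Fxyd4 or Apela cells left out, and 0 (without library 5) to 2 (without library 7) with a library left out; in the thinned, marker-free and library 5 fits only Scnn1a passed the filter. For type A against type B, 3 were called and 0 with thinned cells, where 1 was tested. Within principal-like cells 1 was called, 0 without the filter, thinned or with DESeq2, 3 with a margin of 2 UMIs, 2 with other markers, and 0 to 3 (without library 2 or 5, and without library 6) with a library left out. Between Ehd3 and Plvap cells 1 was called and 0 without the filter or with DESeq2. DESeq2 did not call Scnn1a in principal-like against distal (0.74, adjusted p = 0.0531) or intercalated-like cells (0.70, 0.0742), or in distal against loop cells (0.77, 0.0652), nor Hsd11b2 in type A (0.12). Thinning ended the Nr3c1 call against distal (-0.40) and intercalated-like cells (-0.60) and the Avpr2 call against loop cells (-1.14). With library totals the share of called genes that were higher went from 46.5% to 82.4% (principal-like against distal, 2093 to 3202 called), 49.1% to 61.0% (against intercalated-like), 52.9% to 19.8% (distal against loop), 53.7% to 78.6% (endothelial-like), 48.6% to 34.7% (late distal) and 49.1% to 12.2% (within principal-like, 287 to 588). Thinning lowered the number of called genes to 1150, 949, 540, 2428, 2879 and 2209 in the 6 cluster comparisons, and to 74 (late distal), 211 (type A), 106 (within principal-like), 28 (loop) and 1235 (proximal). Other counts that moved by over 1.5 times were 618 without a library term (distal against loop), 7428, 7613 and 56 without the filter (distal against proximal, immune, Ehd3), 82 with library totals (Ehd3), 842 with other markers (late distal), 110 without library 2 (within principal-like), and 496, 121, 88 and 21 with DESeq2 (type A, within principal-like, loop, Ehd3).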
